A study of Mus musculus with 10 samples.

Results

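The urea cycle turns the ammonia released by amino acid breakdown into urea, and in mammals the complete cycle runs in hepatocytes, mostly in those near the portal vein. N-acetylglutamate synthase (Nags) makes the activator of carbamoyl phosphate synthetase 1 (Cps1), whose product is joined to ornithine by ornithine transcarbamylase (Otc), all within the mitochondrion. In the cytosol, argininosuccinate synthase (Ass1) and argininosuccinate lyase (Asl) then make arginine, and arginase 1 (Arg1) splits it into urea and ornithine. These 6 genes were taken by their symbols on the array and carried 8 of the 39429 probes. All 6 passed the filter on dim probes, among 24007 genes tested.

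The livers came from female C57BL/6 mice aged 8 weeks, all fasted for 24 h before 1 intraperitoneal injection. Treated mice received 350 mg/kg of acetaminophen in PBS and control mice received PBS, and livers were taken at 3, 8, 24, 48 and 72 h. Each of the 10 arrays set the RNA of 1 treated liver (Cy5) against that of 1 control liver of the same time (Cy3), with 2 arrays a time point and no dye swap. A dye effect of a probe can therefore not be told apart from treatment at a single time, but it cancels in differences between times. The shares of probes well above background ran from 44.7% to 75.9% in the treated channel and from 59.7% to 83.7% in the control channel, and the number of arrays limits the precision. All 8 probes of the urea cycle genes were well above background in all 20 channels, and none was saturated. Each time point had 1 array on each of 2 scan days, and the 2 values given for a time follow that order of days, so each value is also the within-day value.

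The probe sequences below, 60 bases each and in lower case throughout since no part of them is singled out, are what was measured for Nags, Cps1, Asl and Arg1, and for Otc with the probe that was not the brightest. They are given 5′ to 3′ as in the deposited array files.
Nags: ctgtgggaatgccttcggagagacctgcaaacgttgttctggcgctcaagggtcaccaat
Cps1: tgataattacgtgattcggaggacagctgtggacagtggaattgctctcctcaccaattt
Otc: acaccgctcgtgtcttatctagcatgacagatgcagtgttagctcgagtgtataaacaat
Asl: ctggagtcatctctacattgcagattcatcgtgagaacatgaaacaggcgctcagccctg
Arg1: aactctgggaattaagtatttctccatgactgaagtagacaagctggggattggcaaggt
In mm9 coordinates of the files, the Nags probe lay on chr11:102009515-102009574, the Cps1 probe on chr1:67276029-67276088 and the Arg1 probe on chr10:24636194-24636253. The Asl probe matched chr5:130487964-130488549, a span of 586 bases, and this Otc probe chrX:9853843-9877490, a span of 23648 bases, so both cross an intron. The brighter Otc probe lay on chrX:9897267-9897326, and the 2 Ass1 probes on chr2:31376068-31376127, the brighter, and chr2:31375998-31376057. The brighter Ass1 probe is also assigned to the transcribed pseudogene Gm5424, and signal of that RNA cannot be told apart from Ass1. The Nags probe lists another accession that the reference table does not name.

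The promoters of Otc and Ass1, the members with the deepest ratios at 48 h, are shown as the 250 bases before the RefSeq start (GRCm38.p6); of the members, 3 of 6 had an entry. The windows are chrX:10252055-10252304 and chr2:31470020-31470269, both on the plus strand, and the only capitals mark a GC box.
Otc: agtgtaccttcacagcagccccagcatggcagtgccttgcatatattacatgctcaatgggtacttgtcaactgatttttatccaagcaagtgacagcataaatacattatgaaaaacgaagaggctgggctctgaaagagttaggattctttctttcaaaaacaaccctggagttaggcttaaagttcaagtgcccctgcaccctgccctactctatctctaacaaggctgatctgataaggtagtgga
Ass1: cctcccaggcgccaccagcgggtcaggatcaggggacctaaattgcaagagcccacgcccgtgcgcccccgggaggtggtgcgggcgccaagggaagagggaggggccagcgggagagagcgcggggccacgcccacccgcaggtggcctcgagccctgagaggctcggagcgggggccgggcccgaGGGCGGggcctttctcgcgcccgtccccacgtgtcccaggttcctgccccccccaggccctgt
G and C made up 43.6% of the Otc window and 75.6% of the Ass1 window. The motifs searched on both strands were TATAAA for the TATA box, CCAAT for its own box, GGGCGG for the GC box, TTGCNNAA for the C/EBP type, TGTTCT for a glucocorticoid receptor half-site and CAAAGTCCA for an HNF4 type. The Otc window held no match, and the Ass1 window held 1 GGGCGG, a motif found in 32.7% of the 32851 promoter windows of this length. The other shares were 12.4% for TATAAA, 33.8% for CCAAT, 9.56% for TTGCNNAA, 16.1% for TGTTCT and 0.384% for CAAAGTCCA.

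The main event was a fall from 8 h to 24 h, called for 5 of the 6 genes (all but Nags), beside 3.82% of all genes. All 6 genes were lower in acetaminophen livers than in control livers at 24 h, 4 of the 6 at 48 h (Cps1, Otc, Ass1 and Asl), and none passed the test at 72 h. At 3 h only Nags passed, and at 8 h none did. Ratios below are log2 of treated over control, with the SE of limma's fit and its Benjamini-Hochberg adjusted p over all genes, and a gene was called at an adjusted p under 0.05. Among all genes, the share called lower was 4.08% at 3 h, 7.57% for 8 h, 7.09% for 24 h, 13.5% for 48 h and 0% for 72 h, and the shares called higher in the same order of times were 3.36%, 5.33%, 3.79%, 17.9% and 0%. With median centring in place of loess the calls split otherwise, with 4998 lower and 1003 higher at 3 h, 2368 and 162 at 8 h, 728 and 26 at 24 h, and 382 and 2518 at 48 h, against 979 and 807, 1818 and 1280, 1701 and 910, and 3235 and 4306 with loess. The median ratio of the 6 genes was 0.075 after 3 h, -0.129 after 8 h, -2.24 after 24 h, -0.991 after 48 h and -0.098 after 72 h, beside all-gene medians between -0.012 and 0.001. In whole liver, fewer cells of a type and less RNA per cell cannot be told apart. Nothing in the labels says whether mice shared a cage or an injection day, and p-values measure the spread between these livers.

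**Figure D1:**
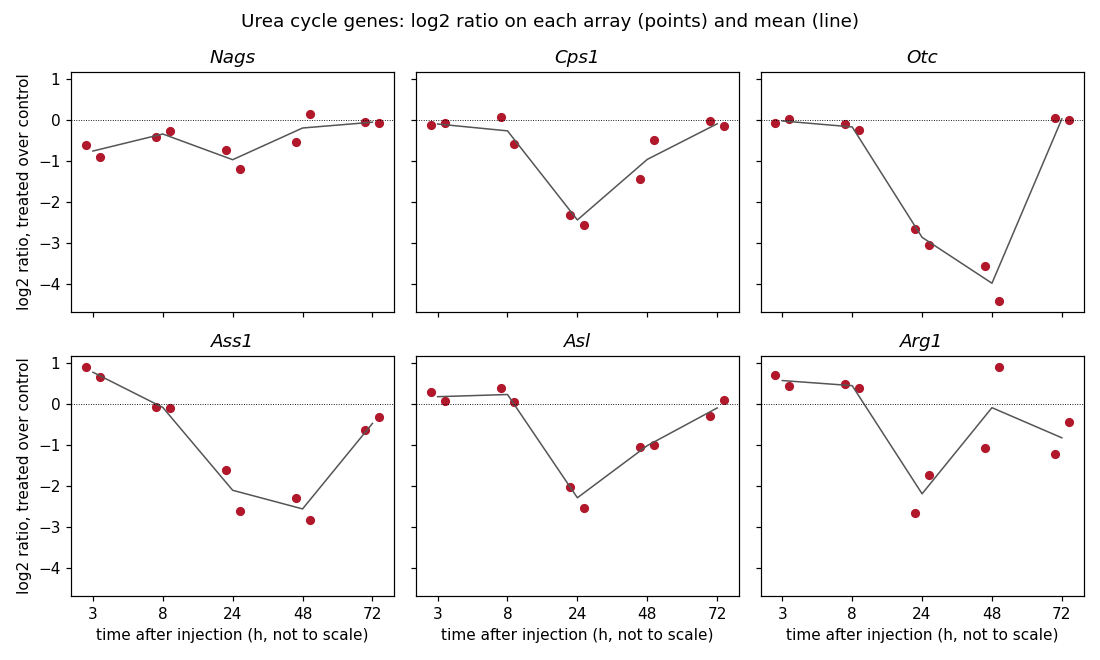
Log2 ratio of treated over control for the 6 urea cycle genes (brightest probe of each) against time after injection in hours. Points are single arrays, the line joins the means of 2 arrays and the dotted line marks equal signal; all 12 points at 24 h lie below 0, Otc is lowest at 48 h, and the 2 Arg1 arrays at 48 h lie on opposite sides of 0.

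Nags, the source of the cycle's activator, had the smallest change at 24 h among the 6 and was the only member called at 3 h. Its ratios were -0.62 and -0.90 at 3 h, -0.41 and -0.28 at 8 h, -0.74 and -1.21 at 24 h, -0.54 and 0.14 at 48 h, and -0.05 and -0.07 at 72 h. Both arrays were below 0 at all times but 48 h, where they fell on opposite sides. The mean was -0.76 ± 0.17 at 3 h (limma adjusted p = 0.0364, 1.69-fold lower) and -0.97 ± 0.17 at 24 h (adjusted p = 0.00867). The size at 24 h depended on the processing. The probe's mean Cy5 signal was 98.2 and 189.4 on the 24 h arrays, over local backgrounds of 45 and 48. There the scan software's own ratios were -2.11 and -1.50, with a mean of -1.80, still the smallest change of the 6. The 3 h call was lost with the scan software's own ratios (-0.84, adjusted p = 0.12), with the scan day as a block (adjusted p = 0.0537) and without either 3 h array, and the 24 h call was lost without the second array (-0.74, adjusted p = 0.145).

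Cps1, which commits ammonia to the cycle, fell at 24 h and was partly back at 48 h. Its ratios were -0.13 and -0.07 at 3 h, 0.06 and -0.60 at 8 h, -2.32 and -2.57 at 24 h, -1.45 and -0.48 at 48 h, and -0.03 and -0.16 at 72 h. The 24 h arrays stood apart from those of every other time. The mean at 24 h was -2.44 ± 0.22 (limma adjusted p = 0.000523), 5.43-fold lower, and 0.233% of genes had a lower ratio. At 48 h it was -0.97 ± 0.22 (adjusted p = 0.0138), and the ratio was 1.48 higher at 48 h than at 24 h (adjusted p = 0.0264), a call lost without either 24 h array (adjusted p = 0.0659 and 0.12), either 3 h array (0.0513) or the second 48 h array (0.995, adjusted p = 0.0947). The 48 h call rested on the first array, since the second alone gave -0.48 and was not called. It was also lost with the slide as a block (-1.07, limma adjusted p = 0.0944) and with median centring (-0.465, adjusted p = 0.558).

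Otc, which makes citrulline, had the lowest ratio of the 6 at 24 h and 48 h by its brighter probe. The ratios of its brighter probe were -0.08 and 0.02 at 3 h, -0.10 and -0.25 at 8 h, -2.67 and -3.06 at 24 h, -3.56 and -4.42 at 48 h, and 0.05 and 0.00 at 72 h. The 4 arrays of 24 and 48 h lay far below the other 6, none of which was below -0.25. The mean was -2.87 ± 0.18 at 24 h (limma adjusted p = 0.000129, 7.29-fold lower) and -3.99 ± 0.18 at 48 h (adjusted p = 3.48e-05, 15.8-fold lower). Of all genes, 0.104% had a lower ratio at 24 h and 0.025% at 48 h. At 72 h the ratio was 0.02 ± 0.18, with a 95% interval of -0.403 to 0.446, and it was 4.01 higher than at 48 h (adjusted p = 0.000486). In order of their ratio, the times ran 48 h, 24 h, 8 h, 3 h and 72 h, and the last 3 did not differ beyond their spread.

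The further fall of Otc between 24 h and 48 h depended on the probe. For the brighter probe the 48 h ratio was 1.12 below that of 24 h (-1.12, limma adjusted p = 0.0338). The probe printed above, spotted 10 times, had ratios of 0.55 and 0.12 at 3 h, 0.61 and 0.55 at 8 h, -1.21 and -2.43 at 24 h, -1.85 and -1.94 at 48 h, and -0.01 and -0.34 at 72 h. It fell at both 24 h (-1.82 ± 0.25, adjusted p = 0.00294 over 29623 probes) and 48 h (-1.89 ± 0.25, adjusted p = 0.00112), but its 48 h minus 24 h difference was -0.08 and not called. Its mean Cy5 signal was 74.7 and 106.1 on the 24 h arrays, over local backgrounds of 42.0 and 45.0. With the software's ratios this probe gave -3.61 at 24 h and -2.99 at 48 h, so the order of the 2 times turned round, while the brighter probe gave -3.34 and -4.43. The call for 48 h against 24 h was also lost when both probes were averaged (-0.60, adjusted p = 0.199), and on leaving out any 1 array other than the first of 48 h; median centring in place of loess turned it to 0.07.

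**Figure D2:**
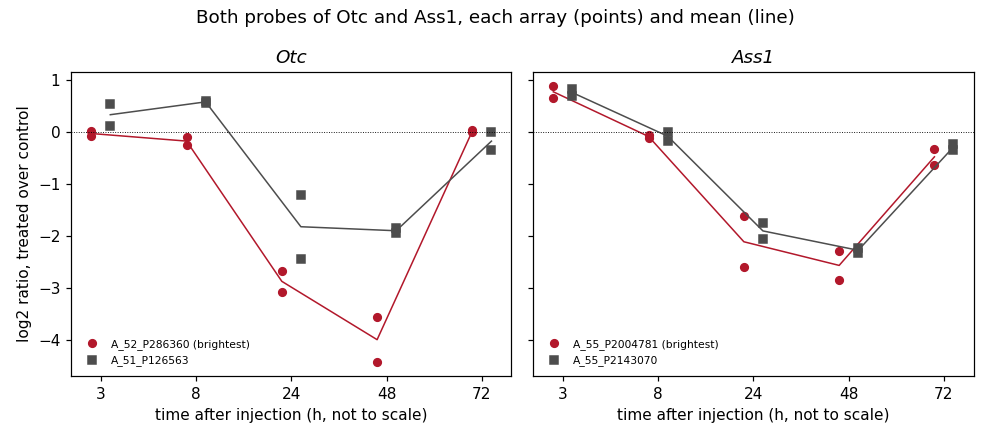
Log2 ratio of treated over control against time in hours for both probes of Otc (left) and of Ass1 (right), on the same scale. Circles are arrays of the brighter probe, squares those of the other, and lines join means; the 2 Ass1 probes run together, while the Otc probes part at 48 h, at -3.99 and -1.89.

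Ass1, the first cytosolic step, was the member with the highest ratio at 3 h and was among those that stayed low at 48 h. Its ratios were 0.89 and 0.66 at 3 h, -0.06 and -0.11 at 8 h, -1.61 and -2.60 at 24 h, -2.28 and -2.84 at 48 h, and -0.63 and -0.32 at 72 h. Both 3 h arrays were above 0 and all 8 later ones below it. The mean was -2.11 ± 0.22 at 24 h (limma adjusted p = 0.000902, 4.3-fold lower) and -2.56 ± 0.22 at 48 h (adjusted p = 0.000218, 5.9-fold lower), and the 2 times did not differ beyond their spread. The value at 3 h, 0.77 ± 0.22, missed the threshold (adjusted p = 0.0806). The other Ass1 probe gave 0.83 and 0.68 at 3 h, a mean of 0.76 ± 0.10 that passed over all probes (adjusted p = 0.0049), and -1.90 and -2.27 at 24 h and 48 h. Median centring turned the 3 h value of the brighter probe to -0.46. At 72 h the ratio was -0.48 ± 0.22, with a 95% interval of -0.992 to 0.042, and only 1.16% of genes were lower, although no gene was called at that time.

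Asl, which releases arginine, fell at 24 h and was partly back at 48 h, where its arrays lay closest together. Its ratios were 0.29 and 0.06 at 3 h, 0.40 and 0.06 at 8 h, -2.03 and -2.55 at 24 h, -1.04 and -0.99 at 48 h, and -0.29 and 0.09 at 72 h. The 3 groups of early, 24 h and 48 h arrays did not overlap. The mean was -2.29 ± 0.15 at 24 h (limma adjusted p = 0.000139, 4.89-fold lower) and -1.02 ± 0.15 at 48 h (adjusted p = 0.00179, 2.02-fold lower). The 48 h call was lost with median centring (-0.446, limma adjusted p = 0.459). The rise of 1.27 between 24 h and 48 h passed (limma adjusted p = 0.0115), a call lost without the second array of 24 h (1.015) or of 48 h (1.247). That of 0.92 between 48 h and 72 h passed (adjusted p = 0.023), a call lost with the software's ratios (0.0635), without either 48 h array (0.0632 and 0.0891) and without the second 72 h array (0.136).

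Arg1, the last step of the cycle, fell at 24 h and then differed between livers of the same time. Its ratios were 0.71 and 0.43 at 3 h, 0.50 and 0.40 at 8 h, -2.66 and -1.73 at 24 h, -1.09 and 0.90 at 48 h, and -1.21 and -0.44 at 72 h. The gap of 1.99 between the 48 h arrays was the largest among the 6 genes at any time. The mean at 24 h was -2.19 ± 0.43 (limma adjusted p = 0.0141, 4.57-fold lower), a call lost without either 24 h array. At 48 h the mean was -0.09 ± 0.43, with a 95% interval of -1.076 to 0.894, and at 72 h it was -0.83 ± 0.43. Arg1 is also made by alternatively activated macrophages. Among recruited macrophage markers, 4 of 7 rose at 48 h, beside 17.9% of all genes. They were led by Chil3, a secreted chitinase-like protein, at 3.51 and 3.03, and Lgals3, galectin 3, at 2.83 and 2.48. The other 3 of the 7 were not called, the list median was 0.365 and the lowest ratio was -0.56. The summed level of the list at 48 h was 15700 and 9200 in treated livers and 6260 and 7130 in control livers, higher on the array where Arg1 was the lower. Retnla, another marker of such macrophages in mice, did not pass the filter on dim probes. The part of these cells in the Arg1 values was not tested.

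Differences between neighbouring times gave 11 calls out of 24, all after 8 h. From 8 h to 24 h, 5 of 6 genes fell (all but Nags), beside 3.82% of all genes lower and 2.46% higher. The Nags difference was -0.63 (limma adjusted p = 0.188). It was called lower with the software's ratios or the authors' table (-1.50, adjusted p = 0.0479) and without background correction (-1.21, adjusted p = 0.046). From 24 h to 48 h, Cps1 and Asl rose, beside 7.8% of genes higher, and Otc fell, beside 2.65% lower. From 48 h to 72 h, Otc, Ass1 and Asl rose, beside 6.56% higher and 10% lower. Between 3 h and 8 h none was called (0.292% of genes lower and 0.533% higher), and 1 member had an unadjusted p under 0.05. Over all 5 times, limma's F test called 5 of 6, with Nags at an adjusted p of 0.0815, beside 23.3% of genes. With the slide as a block 3 of the 11 calls were left, those of 48 h to 72 h, and with median centring 1. On leaving out single arrays, the 24 h minus 8 h call of Arg1 was lost without any 1 of 8 arrays (adjusted p 0.0624 to 0.206), all but those of 48 h, and those of Cps1 (0.0574) and Ass1 (0.0713) without the first 8 h array.

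The counts of 0 are those of limma's adjusted p. At 8 h no member had an unadjusted p under 0.05, against 26% of all genes, and at 72 h none did, against 3.19%. At 72 h the 95% intervals of Nags (-0.45 to 0.334), Cps1 (-0.616 to 0.422) and Asl (-0.442 to 0.246) all held 0, as did those of Otc, Ass1 and Arg1. The 72 h ratios of all genes correlated at 0.265 between the 2 arrays, against 0.676 to 0.857 at the other times. Their median absolute deviation was 0.006 on the first 72 h array and 0.139 on the second. With the software's ratios Nags was at -0.83 and -0.07 at 72 h and was not called.

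Each channel was then taken on its own, as log2 intensity after loess and scaling of the average intensity between arrays. In treated livers the F test over time called 5 of 6 genes (all but Nags, adjusted p = 0.101), beside 18.7% of genes. Asl, for example, was at 13.24 and 13.24 in treated livers at 3 h, 13.03 and 12.80 at 8 h, 10.25 and 9.36 at 24 h, 10.44 and 10.55 at 48 h, and 11.43 and 11.01 at 72 h. Its control livers were at 12.94 and 13.18 at 3 h, 12.63 and 12.74 at 8 h, 12.28 and 11.90 at 24 h, 11.48 and 11.54 at 48 h, and 11.72 and 10.92 at 72 h. The treated level dropped by 24 h and climbed again, and the control level was lower at 48 h and 72 h than at 3 h. The difference of 24 h minus 3 h in treated livers was -3.44 for Asl, -3.28 for Arg1, -2.81 for Cps1, -2.31 for Ass1 and -2.29 for Otc (limma adjusted p between 0.000413 and 0.00247), and 5.04% of genes were called lower.

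In control livers 3 of 6 genes were called over time, beside 3.66% of genes: Asl (limma adjusted p = 0.0305), Cps1 (0.0375) and Nags (0.0457). Control Cps1 was at 11.82 and 12.23 at 3 h, 11.76 and 12.15 at 8 h, 11.87 and 11.24 at 24 h, 10.82 and 10.61 at 48 h, and 10.65 and 10.13 at 72 h. The 4 livers of 48 h and 72 h were below the 6 earlier ones. The difference of 72 h minus 3 h in control livers was -1.75 ± 0.25 for Asl, -1.63 ± 0.27 for Cps1 and -1.27 ± 0.24 for Nags. These 3 were called, beside 1.82% of genes lower. For Otc by its brighter probe it was 0.14 ± 0.21. By that probe, control Otc was instead higher at 48 h than at 3 h, at 12.44 and 12.84 against 11.40 and 11.89. The difference was 1.00 ± 0.21 (limma adjusted p = 0.0317, beside 2.77% of genes higher), although the F test over time was not called (adjusted p = 0.098). That difference was no longer called with quantile normalization (0.842, adjusted p = 0.0966), without background correction (0.0595), with the slide as a block (0.171), or without either 3 h array, the second 48 h array or either 72 h array. In treated livers the difference of 48 h minus 3 h was -2.96 for Otc and -3.28 for Ass1. The treated difference of 72 h minus 3 h was -1.63 for Cps1 (limma adjusted p = 0.0508) and -2.02 for Asl (adjusted p = 0.00589, beside 2.43% of genes lower). Their ratios to control livers at 72 h were -0.10 for each. No gene of the 6 was called in control livers with quantile normalization, without background correction or with the slide as a block, nor on leaving out either 3 h array, the first 24 h, the second 48 h or the second 8 h array. All mice began after the same fast, and its part was not tested.

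**Figure D3:**
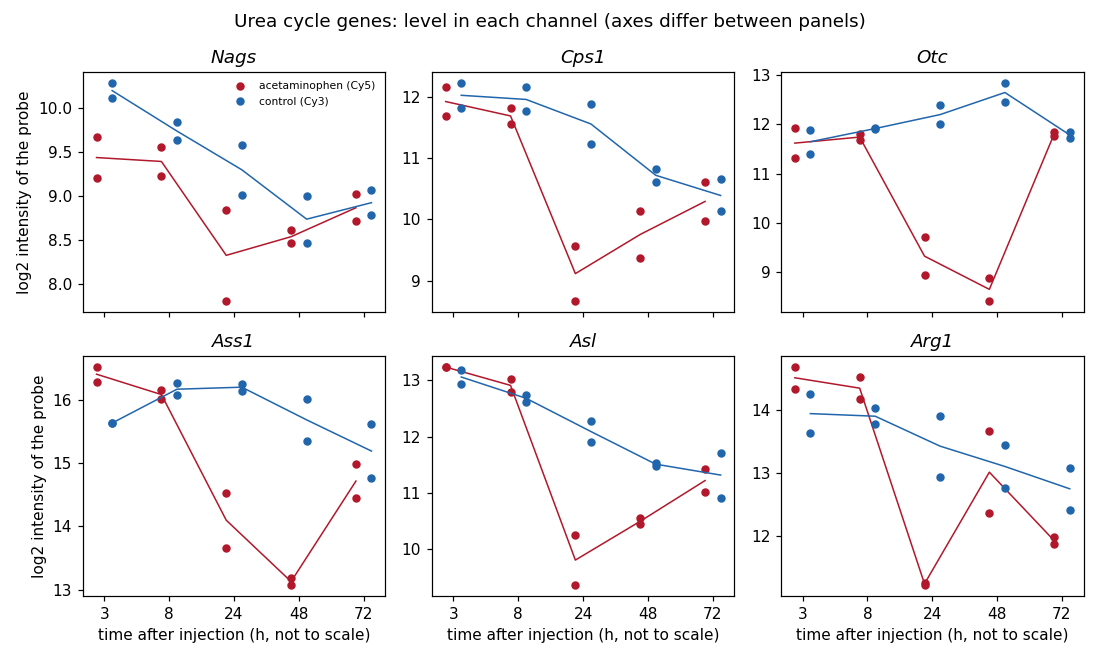
Log2 intensity of each gene's brightest probe against time in hours, in treated livers (red, left of each pair) and control livers (blue, right of each pair); points are single livers, lines join means, and the vertical axes differ between panels. By these probes, treated Otc drops at 24 h and 48 h while control Otc does not (its other probe is not drawn). Control levels of Nags, Cps1 and Asl are lower at 48 h and 72 h than at 3 h.

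Across the 10 arrays, the ratios of Cps1 and Asl (Pearson r = 0.942) and of Otc and Ass1 (r = 0.933) ran closest, and those of Nags and Ass1 were furthest apart (r = -0.007). The arrays share treatment and time, so these values only describe the profiles. Among 17532 other named genes, the profiles most like Otc's were those of Igf1, insulin-like growth factor 1 (r = 0.99), Vtn, vitronectin (0.989), and Serping1, the C1 inhibitor (0.989). For Cps1 they were Shmt1, a cytosolic serine hydroxymethyltransferase (0.984), and Meiob (0.957). For Asl they were Ndufb5, a complex I subunit (0.987), Slc2a8, a hexose transporter (0.98), and Hoga1 (0.976). Those of Ass1 were Haao, a kynurenine pathway dioxygenase (0.987), Tmprss6, matriptase 2 (0.987), and Stat5b, a growth hormone signal transducer (0.98). Arg1 ran closest to Lpcat3 (0.936), Oxa1l (0.932) and Ndufb8 (0.926), and Nags to Rmdn2 (0.941), Fkbp15 (0.93) and Csl (0.907).

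Genes that bring nitrogen to the cycle included rises at 3 h and 8 h and mostly falls at 24 h. Of 17 tested, 4 rose at 3 h and 2 rose at 8 h, where 1 fell, 12 fell at 24 h, and 8 fell and 4 rose at 48 h. Of all genes, 3.36%, 5.33%, 3.79% and 17.9% were called higher at 3, 8, 24 and 48 h. The shares called lower were 4.08%, 7.57%, 7.09% and 13.5%. The list median was -1.52 at 24 h. Sds, serine dehydratase, rose at 3 h (2.22 and 2.74; mean 2.48 ± 0.14), as did Got1, cytosolic aspartate aminotransferase (1.92 and 1.74; mean 1.83 ± 0.34). The Got1 call was lost without either 3 h array (limma adjusted p = 0.185 and 0.102), with the slide as a block (0.0837) and with median centring (0.643, adjusted p = 0.397), and the last also ended the Sds call (1.30, adjusted p = 0.0805). Gls2, the liver glutaminase that feeds ammonia to Cps1, fell at 24 h (-3.11 and -3.64) and 48 h (-2.38 and -2.29). The 48 h call of Gls2 was lost with median centring (-1.705, limma adjusted p = 0.0548). Glul, the glutamine synthetase of pericentral hepatocytes, takes up the ammonia the cycle leaves. It fell at 24 h (-2.49 and -3.33) and further from 0 at 48 h (-3.16 and -4.73, mean -3.94 ± 0.39, limma adjusted p = 0.000378). The 24 h call of Glul was lost with an intensity trend in the variance (limma adjusted p = 0.18). Prodh, proline dehydrogenase, was at -2.88 and -4.09 at 48 h. Oat, ornithine aminotransferase, fell at 8 h (-1.16 and -1.26), 24 h (-1.70 and -2.17) and 48 h (-2.60 and -3.94). The 8 h call of Oat was lost without either 8 h array (limma adjusted p = 0.226 and 0.128) and with an intensity trend in the variance (0.475), and its 24 h call without the second array (0.0524) and with that trend (0.27). Of the mitochondrial carriers, Slc25a13, the aspartate and glutamate carrier citrin, fell at 24 h (-1.43 and -1.23), a call lost with median centring (-1.922, limma adjusted p = 0.0745). Slc25a15, the ornithine and citrulline carrier, was called at no time in the main fit (-0.29 and -0.78 at 24 h). At 24 h it was called lower with the software's ratios (-1.117, limma adjusted p = 0.0244) and without background correction (-0.904, adjusted p = 0.0181). Slc25a2 did not pass the filter on dim probes.

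The genes that use arginine and ornithine for other products split at 48 h. Of 12 tested, 1 fell at 3 h and 1 at 8 h, 1 rose and 2 fell at 24 h, and 4 rose and 3 fell at 48 h. Among all genes, 4.08%, 7.57%, 7.09% and 13.5% were called lower at 3, 8, 24 and 48 h. At 24 h and 48 h, 3.79% and 17.9% were called higher. Odc1, ornithine decarboxylase, rose at 48 h (2.44 and 3.02; mean 2.73 ± 0.20, limma adjusted p = 0.000129), and Srm, spermidine synthase, rose (1.15 and 0.92). Gamt, which makes creatine, fell at 48 h (-2.52 and -3.73), and so did Agmat, agmatinase (-2.16 and -2.68). The Agmat call was lost with median centring (-1.796, limma adjusted p = 0.0529). Arg2, the mitochondrial arginase, was not well above background in control livers at 48 h and was at least 1.6-fold higher in treated livers (adjusted p = 0.00979), a call lost without the second array.

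Of 14 transporters of amino acids, ammonium or urea, 1 rose at 3 h, 2 rose at 8 h, 2 fell and 1 rose at 24 h, and 5 fell and 2 rose at 48 h. Beside this list and the regulators below, 3.36%, 5.33%, 3.79% and 17.9% of all genes were called higher at 3, 8, 24 and 48 h. The shares called lower were 4.08%, 7.57%, 7.09% and 13.5%. Slc38a2, a sodium-coupled neutral amino acid transporter, rose at 3 h (1.83 and 2.37), and Slc7a1, a cationic amino acid transporter, rose at 8 h (2.22 and 1.22). The Slc7a1 call was lost without the first 8 h array (limma adjusted p = 0.134) and with the slide as a block (0.0664), and the Slc38a2 call with median centring (0.976, adjusted p = 0.163). Slc38a4 fell at 24 h (-2.74 and -3.45), and Slc38a3, a glutamine transporter, fell at 48 h (-2.21 and -3.20). Among 12 regulators, 2 rose and 1 fell at 3 h, 2 rose and 2 fell at 8 h, 6 fell at 24 h and 7 at 48 h. Cebpb, a C/EBP transcription factor, rose at 3 h (1.08 and 1.88), as did the coactivator Ppargc1a (1.12 and 1.07). Ppargc1a was not called without either 3 h array (limma adjusted p = 0.122 and 0.0733), nor Cebpb without the second (0.0662), and neither was with the slide as a block (0.107 and 0.0552) or with median centring (0.27 and 0.348). Klf15, a factor that drives amino acid catabolism, fell at 24 h (-1.35 and -3.02), as did Sirt3, a mitochondrial deacetylase (-1.61 and -1.45). No gene of these lists was called at 72 h, when 0% of all genes were.

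**Figure D4:**
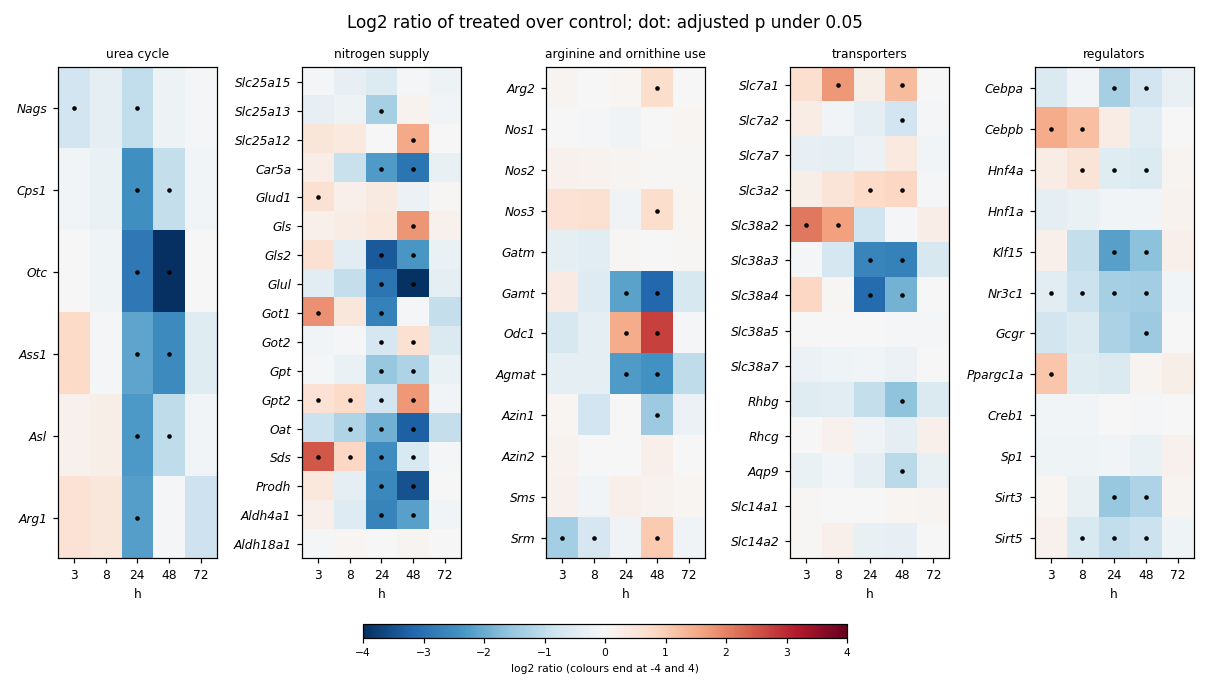
Mean log2 ratio of treated over control (colour) for the 6 urea cycle genes and the tested genes of 4 related lists, one column for each time in hours; a dot marks a limma adjusted p under 0.05. Dots crowd at 24 h and 48 h, where blue (lower in treated) prevails in the urea cycle and nitrogen supply genes, and none stands at 72 h.

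Genes used mostly around the portal vein and genes used mostly around the central vein both included falls at 24 h and 48 h. Of 12 periportal genes, 5 rose at 3 h, 4 rose and 1 fell at 8 h, 10 fell at 24 h, and 8 fell and 1 rose at 48 h. Beside this list and the pericentral one, 4.08%, 7.57%, 7.09% and 13.5% of all genes were called lower at 3, 8, 24 and 48 h. The shares called higher were 3.36%, 5.33%, 3.79% and 17.9%. Pck1, the gluconeogenic carboxykinase, was at 1.29 and 2.02 at 3 h and -3.31 and -3.13 at 24 h. Its 3 h call was lost with median centring (0.429, limma adjusted p = 0.574). Of 10 pericentral genes, 3 fell at 3 h, 4 by 8 h, 8 by 24 h and 9 by 48 h. The lowest was Rgn, regucalcin, at -4.19 and -5.66 at 48 h. With an intensity trend in the variance, this list had 1 call at 3 h, 1 at 8 h and 2 at 24 h. The Rgn call at 48 h was lost with that trend (limma adjusted p = 0.0918). The pericentral list median was -0.678 at 3 h, against 0.628 for the periportal list. Median centring moved the 3 h counts to 8 pericentral and 0 periportal genes. The pericentral list's summed level at 24 h was 56000 and 22800 in treated livers and 111000 and 89400 in control livers. At 48 h the value of Cyp2e1, which stands in this list and among the hepatocyte markers, came from 1 array, since the other spot was flagged as an outlier. The lists share some genes, such as Glul and Oat here and in nitrogen supply.

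Markers of cell types moved beside these values. Of 6 hepatocyte markers, 3 fell at 24 h and 3 at 48 h, beside 7.09% and 13.5% of all genes. Among them was Tat, tyrosine aminotransferase, at -2.63 and -2.58 at 24 h. The summed level of the 6 at 24 h was 268000 and 182000 in treated livers and 357000 and 364000 in control livers. Of 4 neutrophil markers, S100a8 and S100a9 rose at 24 h and 48 h, beside 3.79% and 17.9% of all genes. The ratio of S100a9 at 48 h was 3.66 ± 0.50. The summed level of the list at 24 h was 43700 and 25800 in treated livers and 15600 and 19600 in control livers. At 48 h that sum was 30400 and 21800 in treated livers and 29700 and 24800 in control livers, and the other 2 markers, Csf3r and Camp, were not called. At 48 h, 1 of 6 Kupffer cell markers (Marco), 1 of 5 endothelial (Cdh5) and 1 of 3 cholangiocyte markers (Sox9) rose, beside 17.9% of all genes. Reln, 1 of 6 stellate markers, fell at 48 h, beside 13.5% of all genes. None of 5 lymphocyte and 3 red cell markers was called at any time. The part of these shifts in the values of the urea cycle genes was not tested.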

How the data were processed

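Liver RNA of 10 treated and 10 control mice was measured on 10 Agilent 2-colour arrays. The deposited scanner files, written by Agilent Feature Extraction 10.7.3.1 per the file headers, hold the mean and background intensity of each spot and the software's log10 ratio of red over green. The authors' value table holds the same ratios times 1.443, a score whose scale is unstated; its median is 0 on each array. Its direction, treated over control, is that of the dyes in the labels.

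Intensities were background-corrected in limma 3.58.1 (R 4.3.3; normexp, offset 50) and loess-normalized, with control spots and outlier flags at weight 0; 2718 outlier-flagged spots were then left out. Spots of a probe were averaged. A probe was kept if well above background in 1 channel on both arrays of a time point (29623 of 39429), and the brightest kept probe stood for each gene. The log2 ratios were fitted by time over all 10 arrays (lmFit, eBayes, Benjamini-Hochberg over 24007 genes, 5 residual degrees of freedom). Channels were compared after Aquantile scaling. The code was tested on simulated data.

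The genes named were all 6 members, in each related list the 2 largest rises and falls among the calls, 6 genes named in any case (Slc25a15, Slc25a13, Arg2, Glul, Gls2 and Oat), and the 3 closest profiles of each member, of which 1 is not reported here. Sequences came from the array files and RefSeq tables. The members and lists were chosen with earlier results of these data known. Alternatives were the software ratios, the authors' table, other background, offset, normalization, filter, probe and variance settings, scan day and, added after seeing the data, slide as blocks, and leaving out each array.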

Additional observations from a re-analysis of the deposited data

Results flagged for a closer look

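Effects at neighbouring times were compared by limma's contrast between the 2 log2 ratios, adjusted over all genes, and 11 differences of urea cycle genes passed. Between 8 h and 24 h the ratio changed by -2.17 for Cps1, -2.69 for Otc, -2.02 for Ass1, -2.52 for Asl and -2.64 for Arg1, the last the nearest to the threshold (adjusted p = 0.0437) and lost without any 1 of 8 of the 10 arrays (0.0624 to 0.206), with the slide as a block (0.0701) and with no filter on dim probes (0.0633). Between 24 h and 48 h it changed by 1.48 for Cps1 and 1.27 for Asl, and by -1.12 for Otc, whose less bright probe does not show that step. Between 48 h and 72 h it changed by 4.01 for Otc, 2.08 for Ass1 and 0.92 for Asl. No group held enough arrays for a test of single outlying livers, so the opposite signs of the 2 Arg1 arrays at 48 h are given as values only.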

How the results depend on the processing

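The fall of 6 of 6 genes at 24 h and of 4 at 48 h kept these counts under most settings. Scaling the ratios between arrays left 0 genes called at 3 h, 24 h, 48 h, between neighbouring times and over all times; it equalises the median absolute deviation of the arrays, which ran from 0.006 to 0.257. Median centring moved the median of all genes to -0.244 at 3 h and -0.184 at 8 h. It gave 1 gene called at 8 h and 5 at 24 h (Arg1 lost, limma adjusted p = 0.0994). At 48 h it gave 2 (Cps1 and Asl lost). There was 1 call between neighbouring times and 1 over all times. The single call at 3 h went to 0 with the software ratios, the authors' table and both blocks, and to 2 with the strict filter and with the mean of all kept probes. Without background correction it was Ass1, higher (0.775, adjusted p = 0.0307), in place of Nags (adjusted p = 0.0899). The slide as a block, added after seeing the data, left 3 genes called at 48 h, 3 calls between neighbouring times and 0 over time in control livers, which were also 0 without background correction and with quantile normalization. Leaving out 1 array gave 0 to 2 genes called at 3 h, 4 to 6 at 24 h, 3 to 4 at 48 h, 7 to 13 between neighbouring times, 4 to 6 over all times, 5 to 6 over time in treated livers and 0 to 2 in control livers. The lone array left at a time was assumed to vary like the others. Deviations of arrays of 1 scan day from their time means correlated between -0.122 and 0.295, with 4 of 10 pairs over 0.1. The main fit held no term for the day. With the scan day as a replicate block, 6 genes were called at 24 h, 4 at 48 h, 12 between neighbouring times and 5 over all times.

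These values changed sign. Median centring gave, at 3 h, -0.46 for Ass1, -1.01 for Asl and -0.63 for Arg1, at 8 h -0.50 for Asl and -0.28 for Arg1, and at 48 h 0.11 for Nags and 0.65 for Arg1. For 48 h minus 24 h it gave 0.072 for Otc and 1.22 for Ass1, and for 72 h minus 48 h -0.138 for Nags. Scaling between arrays gave 2.74 for Otc and 1.77 for Ass1 (48 h minus 24 h), and -1.68 for Ass1, -0.728 for Asl and -0.045 for Nags (72 h minus 48 h). That Nags difference was -0.06 with the software ratios and the authors' table and -0.076 without background correction. The mean of all kept probes gave 0.153 at 3 h, 0.203 at 8 h and -0.076 at 72 h for Otc. The slide block gave 0.001 for Cps1 at 3 h, 0.093 for Nags at 72 h and 0.113 for Nags in treated livers (72 h minus 3 h), and quantile normalization gave -0.492 for Ass1 in control livers (48 h minus 3 h). Without 1 array, the ratios ran for Otc between -0.08 and 0.025 (3 h) and between -0.004 and 0.047 (72 h), for Cps1 between -0.60 and 0.062 (8 h), for Arg1 between -1.09 and 0.904 (48 h), for Nags between -0.538 and 0.14 (48 h), and for Asl between -0.286 and 0.09 (72 h). The differences ran between -1.73 and 0.26 for Arg1 and between -0.198 and 0.48 for Nags (72 h minus 48 h), between -0.948 and 0.039 for Ass1 (48 h minus 24 h), between -0.109 and 0.483 for Otc in treated livers and between -0.106 and 0.382 for Otc in control livers (72 h minus 3 h), and between -0.282 and 0.383 for Ass1 in control livers (48 h minus 3 h). Apart from the scaling, whose construction is given, the cause was not tested.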
